A study of Mus musculus with 6 samples.

Results

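Dynamins and the proteins that work with them in synaptic vesicle endocytosis were measured in RNA from mouse brainstem motor neurons. The set comprised 10 genes, the dynamin genes Dnm1, Dnm2 and Dnm3, the BAR-domain genes Amph, Bin1 and Sh3gl2, the phosphatase gene Synj1, the clathrin light chain genes Clta and Cltb, and the clathrin adaptor gene Snap91. Its members were all probe sets that the platform annotation assigns to exactly 1 of these symbols, which gave 33 of the 45037 probe sets that were not controls. The genes were chosen for their role, with earlier results of these data known. Of the 33 probe sets, 27 passed a filter on low signal, which kept 27022 probe sets in all.

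The samples were 3 RNA samples from SOD1 mice and 3 from wild-type (WT) mice, each on its own Affymetrix array. SOD1 is the symbol for copper-zinc superoxide dismutase, mutated in some inherited forms of amyotrophic lateral sclerosis. The sources used here do not give the SOD1 allele, its promoter, the strain, the age, the stage of disease or the way the motor neurons were collected, which limits what the group models. All 6 RNA samples had been amplified in 2 rounds with a T7-based reaction, and the labels do not tell whether replicates are different animals. The p-values therefore cover only the spread between these samples, which may be technical.

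A synaptic vesicle that has fused with the plasma membrane is taken back up through a coated pit. Adaptors such as AP-2 and AP180 gather the cargo and recruit clathrin, whose heavy chains form a cage with light chains bound to it. BAR-domain proteins sense or shape the curved neck of the pit and bring in dynamin, a GTPase that winds round the neck and cuts it, after which synaptojanin 1 removes phosphates from phosphoinositides and the coat comes off. Motor neurons use this cycle at the terminals they form on muscle, while the RNA measured here came from the brainstem, where their cell bodies lie.

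Values below are log2(signal + 16) after quantile normalisation of the 6 arrays. Changes are differences on that scale, SOD1 minus WT, which understate the change of low signals. Each is given ± the SE of the limma fit to 3 arrays a group. That SE also takes in the variance of other probe sets, so it is not the spread of the replicates alone. For Bin1 1444120_at the SD was 0.12 in SOD1 and 0.13 in WT, and the SE was 0.31. Median deposited signal was 267 to 315 per array, and precision is limited by having only 6 arrays. Arrays correlated across probe sets at 0.918 to 0.929 within SOD1, 0.930 to 0.957 within WT and 0.901 to 0.937 between the groups. Of the motor neuron markers, Slc18a3, the vesicular acetylcholine transporter, read 12.75, 12.06 and 12.50 on the SOD1 arrays, against 13.06, 13.66 and 13.58 on the WT arrays, and Chat, which makes acetylcholine, read 9.41, 9.30 and 8.403, against 9.004, 9.51 and 9.78. Both were above the background level of every array, which lay between 7.22 and 7.62. SOD1 replicates 1 and 2 read 12.83 and 12.91 for Xist, against 5.71 on SOD1 replicate 3 and 5.76 to 7.07 in WT. Xist is transcribed from the inactive X chromosome of females, and the sex of the animals is not stated in the labels.

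Dnm1 encodes dynamin 1, the neuronal dynamin of vesicle recycling. Its probe set of higher signal, 1460365_a_at, read 15.28, 14.77 and 14.80 on SOD1 replicates 1, 2 and 3, against 16.11, 16.24 and 16.11 on WT replicates 1, 2 and 3. All 3 SOD1 arrays lay below all 3 WT arrays, and SOD1 replicate 1 was the nearest to them. The group means were 14.95 ± 0.28 in SOD1 and 16.15 ± 0.07 in WT (SD, n = 3 each). Dnm1 thus fell 2.30-fold on this probe set, a change of -1.20 ± 0.14 with a 95% interval of -1.52 to -0.88 (limma, adjusted p = 0.0221). It was the 1 probe set of the 27 tested here that passed the threshold of 0.05 adjusted over the whole table, where 33 of 27022 probe sets, 0.122%, fell and 17, 0.0629%, rose.

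The call rested on the variance model and on single arrays. With no variance trend the SE was 0.23 and the adjusted p was 0.321, and no probe set of the table passed. The adjusted p was 0.0696 without WT replicate 1, 0.129 without WT replicate 2 and 0.0760 without SOD1 replicate 2, with changes between -1.23 and -1.10. With a term for arrays of high Xist signal, which sets SOD1 replicate 3 alone against the WT arrays, the change was -1.35 ± 0.20 (limma, adjusted p = 0.0378).

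**Figure D1:**
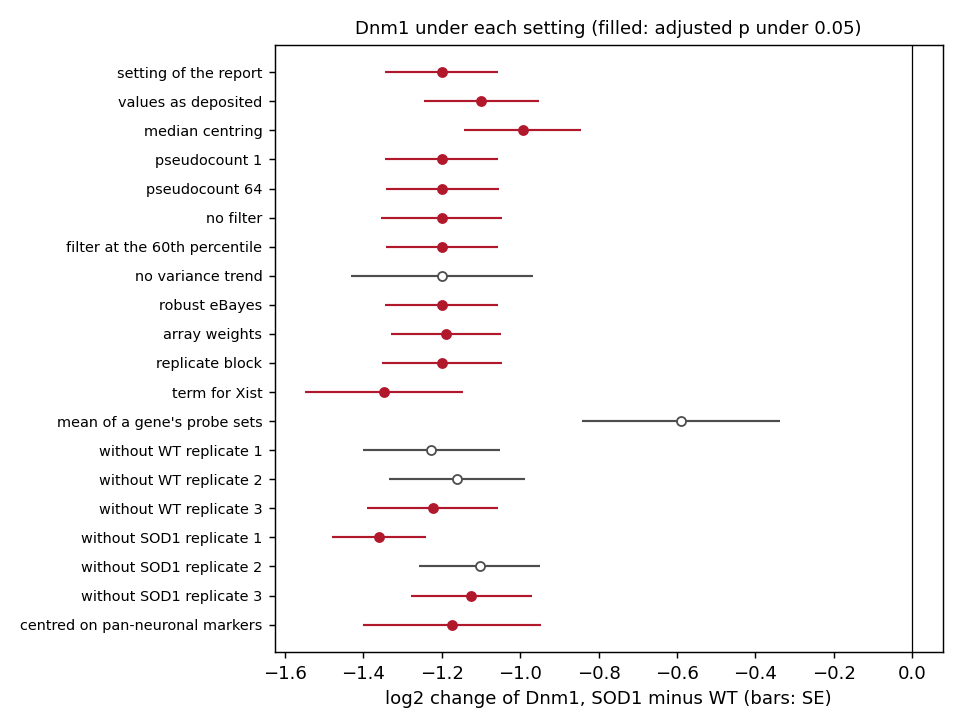
Log2 change of Dnm1 on probe set 1460365_a_at, SOD1 minus WT (x axis), with SE bars, under each setting tried (rows); filled red points have an adjusted p under 0.05 and open points do not. The value ranged from -1.36 to -0.59 over the settings that measured it, and the value nearest to 0 is the mean of both Dnm1 probe sets.

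Markers of other cells moved between the groups as well. Of 17 listed microglial and myeloid markers 16 were tested, all 16 had a positive estimate and 5 rose, and their summed signal was 121675 to 235873 in SOD1 against 11397 to 48525 in WT. Tyrobp, an adaptor of myeloid receptors, read 14.81, 14.23 and 13.40 in SOD1, against 10.97, 9.77 and 8.26 in WT. Of 12 astrocyte markers 2 rose, with sums of 249717 to 255379 in SOD1 against 207864 to 217131 in WT. One that rose was Gfap, the filament gene of astrocytes, which changed by 3.38 ± 0.47. Estimates were negative for 2 of the 12, Sox9 (-0.24 ± 0.58) and Aldoc (-0.20 ± 0.10), the latter with all SOD1 arrays below all WT arrays. The 11 oligodendrocyte markers tested all had a positive estimate and 0 passed, with sums of 265971 to 292980 in SOD1 against 202305 to 239755 in WT. All 12 endothelial and mural markers tested had a negative estimate, 1 fell, Acta2 of smooth muscle (-5.02 ± 0.77), and their sums were 17444.5 to 27312 in SOD1 against 38581 to 83186 in WT.

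Neuronal markers went both ways. At an unadjusted limma p under 0.05, 8.87% of all genes in the table were lower and 7.67% higher. At that level 2 of the 10 pan-neuronal markers were lower and 1 higher, and 4 of the 11 motor neuron markers tested were lower and 1 higher. Among those chosen here after their values were seen, Rbfox3, the NeuN gene, had a difference of -1.13 ± 0.26 and Ache, acetylcholinesterase, one of -1.06 ± 0.25, both with groups that did not overlap, while Gap43, a growth cone gene, was at 0.81 ± 0.30 and Uts2 at 2.02 ± 0.74. Slc18a3 was at -0.995 ± 0.25, and none of these passed after adjustment. The pan-neuronal markers averaged 14.69 to 15.13 on the SOD1 arrays and 14.80 to 15.14 on the WT arrays, which overlap, with 0 past the threshold. Their summed signal was 452902 to 540793 in SOD1 against 528849 to 591971 in WT. The motor neuron markers averaged 13.98 to 14.26 in SOD1 and 14.04 to 14.23 in WT, with sums of 519729 to 575273 in SOD1, all below the 578052 to 633067 in WT. Of 11 listed markers of other neurons 9 were tested and 0 passed, with 1 lower, Sst (-2.10 ± 0.77), and 1 higher, Slc17a6 (1.44 ± 0.58), at the unadjusted level. Their sums were 4534.6 to 11409 in SOD1 against 3079 to 8367 in WT. None of the tested markers of these lists was at background on all 6 arrays. Sst was at background on all 3 SOD1 arrays, so the size of its change is poorly set. With each array centred on its pan-neuronal markers, the change of Dnm1 was -1.17 ± 0.23 (limma, adjusted p = 0.0361). The part of the other cell types in the change of Dnm1 was not tested, and in bulk RNA fewer cells of a type and less RNA per cell cannot be told apart.

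The second Dnm1 probe set, 1427754_a_at, read 8.45, 8.48 and 8.25 in SOD1, against 8.06, 9.28 and 7.78 in WT. These values lie not far above the background level and the groups overlap. Its change was 0.02 ± 0.52 with a 95% interval of -1.13 to 1.17. That interval ends just short of the first probe set's estimate of -1.20 and overlaps its interval of -1.52 to -0.88. The changes of these 2 probe sets differed by 1.22 ± 0.41, with an interval of 0.22 to 2.22, and the difference did not pass over the 9990 such pairs of the table (limma, unadjusted p = 0.0236, adjusted p = 0.565). Averaged over both probe sets, Dnm1 had a change of -0.59 ± 0.25 (limma, adjusted p = 0.306).

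Dnm2 encodes dynamin 2, which is expressed in most cell types and cuts vesicles at the plasma membrane and the Golgi. Of its 7 probe sets 4 were tested and 0 passed. The one of highest signal, 1423629_at, read 10.48, 10.25 and 10.25 in SOD1, against 9.80, 10.14 and 10.44 in WT, overlapping groups with a change of 0.20 ± 0.32. On 1425135_a_at all SOD1 arrays were below all WT arrays, at 9.71, 9.54 and 9.80 against 10.25, 10.09 and 10.28, with a change of -0.52 ± 0.32 (limma, adjusted p = 0.475). The changes of those 2 probe sets differed by -0.73 ± 0.28 (limma, unadjusted p = 0.0369, adjusted p = 0.6004). The other tested probe sets, 1425136_x_at and 1451057_x_at, had estimates of -0.31 ± 0.37 and -0.02 ± 0.45.

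Dnm3 encodes dynamin 3, a brain dynamin found at synapses and in dendritic spines. Its 5 probe sets were all tested and their changes ran from -1.01 to 0.55, with 0 past the threshold. The probe set of highest signal, 1436624_at, read 15.84, 16.27 and 16.001 in SOD1, against 16.24, 15.95 and 16.27 in WT. These groups overlap, and the change was -0.12 ± 0.13 with an interval of -0.41 to 0.17. This small change took the other sign under other scalings, 0.02 for the deposited values and 0.13 after median centring.

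On the Dnm3 probe set 1446265_at the groups were apart. It read 12.15, 11.95 and 11.58 in SOD1, against 12.55, 13.18 and 13.002 in WT, a change of -1.01 ± 0.26 that did not pass (limma, adjusted p = 0.133). Its change minus that of the probe set of highest signal was -0.89 ± 0.35 (limma, unadjusted p = 0.0423, adjusted p = 0.6004). Of the rest, 1436875_at was at -0.56 ± 0.26, or -0.29 without WT replicate 1 and -0.80 without WT replicate 3. Probe set 1425403_at was at -0.69 ± 0.52 with 1 SOD1 array at background. The last, 1438801_at, was at 0.55 ± 0.48, where the WT arrays spread from 10.08 to 12.22.

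**Figure D2:**
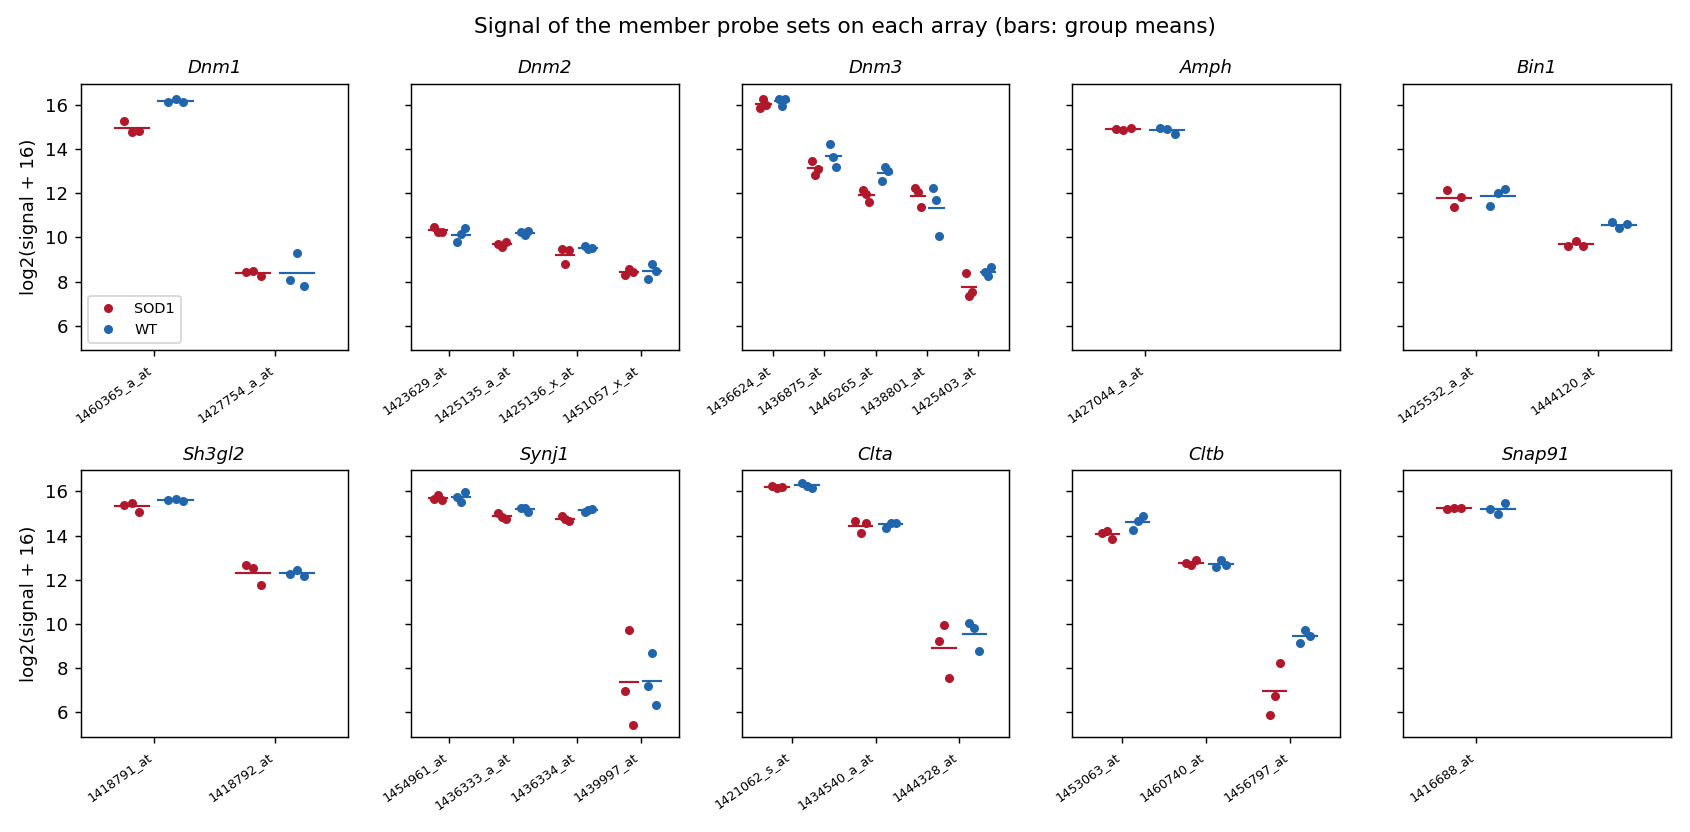
Signal of the 27 tested probe sets as log2(signal + 16) (y axis), 1 panel per gene, with SOD1 arrays in red left of WT arrays in blue and bars at the group means. The 3 SOD1 points lie below the 3 WT points on 9 probe sets, among them the Dnm1 probe set 1460365_a_at at 14.77 to 15.28 against 16.11 to 16.24, and on 0 probe sets do they all lie above.

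Amphiphysin, endophilin A1 and BIN1 bind curved membrane through their BAR domains and dynamin through their SH3 domains. Amph, the amphiphysin gene of nerve terminals, had 1 probe set, which read 14.88, 14.84 and 14.95 in SOD1, against 14.95, 14.88 and 14.68 in WT. The arrays of the groups overlap, and the change was 0.06 ± 0.13 with an interval of -0.24 to 0.35 (limma, adjusted p = 0.880). Sh3gl2, which encodes endophilin A1, read 15.39, 15.49 and 15.08 in SOD1, against 15.63, 15.65 and 15.55 in WT on 1418791_at. Here the groups were apart by a small step, -0.29 ± 0.13, which did not pass (limma, adjusted p = 0.335). Its size depended on the setting, at -0.17 for the deposited values and also without SOD1 replicate 3, -0.065 after median centring and -0.52 with the term for Xist. A second Sh3gl2 probe set, 1418792_at, was at 0.03 ± 0.27, and at -0.53 with the term for Xist.

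Bin1 encodes a relative of amphiphysin made in many tissues, in neurons as well as glia. Its probe set 1425532_a_at read 12.12, 11.35 and 11.81 in SOD1, against 11.40, 12.02 and 12.18 in WT, with overlapping groups and a change of -0.11 ± 0.30. Its probe set 1444120_at read 9.62, 9.83 and 9.63 in SOD1, all below the 10.69, 10.43 and 10.61 in WT. That change was -0.88 ± 0.31 and did not pass (limma, adjusted p = 0.229). The difference in change between the 2 probe sets, -0.77 ± 0.39, had an interval that includes 0, from -1.71 to 0.16.

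Synj1 encodes synaptojanin 1, the phosphoinositide phosphatase of uncoating. Of its 4 probe sets, all tested, the one of highest signal, 1454961_at, read 15.66, 15.86 and 15.63 in SOD1, against 15.77, 15.54 and 15.96 in WT. Its groups overlap, and its change was -0.04 ± 0.13. On 2 others the SOD1 arrays lay below the WT arrays. These were 1436334_at, at 14.89, 14.73 and 14.67 in SOD1 against 15.08, 15.16 and 15.22 in WT (-0.39 ± 0.13, limma, adjusted p = 0.209), and 1436333_a_at (-0.32 ± 0.13, limma, adjusted p = 0.296). After median centring they were at -0.18 and -0.12. The last, 1439997_at, was at background on 2 SOD1 and 2 WT arrays.

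Clathrin light chains a and b, from Clta and Cltb, bind the heavy chain and tune the assembly of the coat. On the Clta probe set of highest signal, 1421062_s_at, SOD1 read 16.26, 16.18 and 16.22, against 16.40, 16.24 and 16.17 in WT. The change was -0.05 ± 0.10 with an interval of -0.27 to 0.16, and its sign turned, to 0.081 on the deposited values and to 0.19 after median centring. A second probe set, 1434540_a_at, gave -0.05 ± 0.17, with 0.09 under median centring and 0.05 with the term for Xist. The third, 1444328_at, gave -0.62 ± 0.60.

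Cltb, the light chain b gene, had 3 tested probe sets, of which 1 had SOD1 arrays at background. Probe set 1453063_at read 14.14, 14.20 and 13.84 in SOD1, against 14.25, 14.66 and 14.89 in WT, groups just apart with a change of -0.54 ± 0.19 (limma, adjusted p = 0.234). Probe set 1460740_at had overlapping groups and a change of 0.03 ± 0.21, which was -0.0062 with values as deposited. Probe set 1456797_at read 5.88, 6.75 and 8.25 in SOD1, against 9.14, 9.72 and 9.48 in WT, a change of -2.49 ± 0.63 that did not pass (limma, adjusted p = 0.135). SOD1 replicates 1 and 2 were at the background level there, so the size of that change is poorly set. It was -1.20 with the term for Xist and -3.13 without SOD1 replicate 3. Averaged over its 3 probe sets, with 1456797_at included, Cltb had a change of -0.998 ± 0.25 (limma, adjusted p = 0.117). The size of that average is poorly set too.

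Snap91 encodes AP180, the neuronal adaptor that recruits clathrin and sets vesicle size. Its tested probe set read 15.19, 15.26 and 15.25 in SOD1, against 15.19, 14.98 and 15.46 in WT. The SOD1 arrays fell within the WT range, and the change was 0.03 ± 0.14 with an interval of -0.28 to 0.34 (limma, adjusted p = 0.9501).

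The 6 member probe sets below the filter were 3 of Dnm2 and 1 each of Bin1, Sh3gl2 and Snap91, and they were not tested. On each, at least 2 of the 6 arrays were at background. For Dnm2 1432005_at the SOD1 arrays read 8.30, 6.75 and 7.05, against 4.98, 5.97 and 4.92 in WT. Only SOD1 replicate 1 was above background on that probe set, so no fold is given. For Snap91 1437817_at the SOD1 arrays read 8.01, 5.87 and 4.72, against 7.48, 8.02 and 8.80 in WT, with SOD1 replicates 2 and 3 at background.

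**Figure D3:**
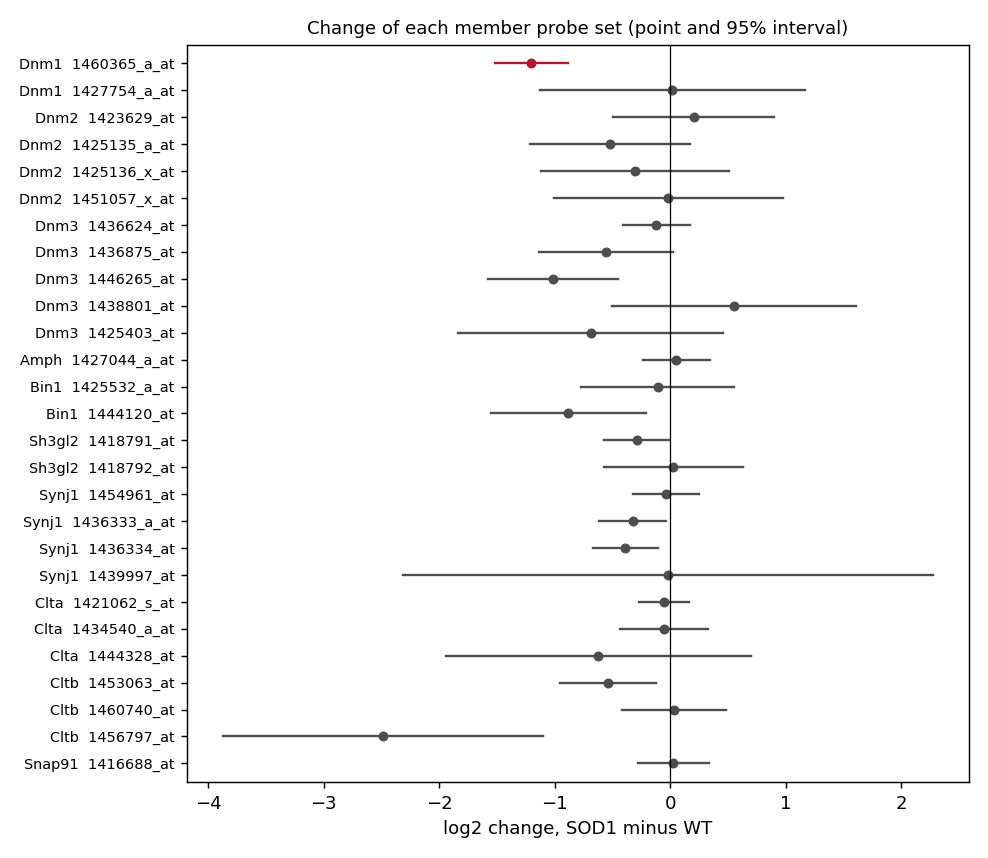
Log2 change, SOD1 minus WT (x axis), of each tested probe set of the 10 genes (rows), with points at the estimate and lines for the 95% interval; red marks an adjusted p under 0.05. Dnm1 1460365_a_at, at -1.20 with an interval of -1.52 to -0.88, is the red row, and the interval of Amph, -0.24 to 0.35, lies clear of it.

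Across the 27 tested probe sets 20 changes were negative, with a median of -0.12, beside 50.5% negative and a median of -0.01 over all probe sets tested. The SOD1 arrays were all below the WT arrays on 9 of the 27, 33.3%, against 9.81% of all probe sets, and all above on 0, against 10.5%. At an unadjusted limma p under 0.05, 8 of the 27, 29.6%, were lower and 0 were higher, against 7.56% and 7.1% of all probe sets. The 9 came from 7 genes, and probe sets of 1 gene share their transcripts, so they are not separate observations. By the probe set of highest signal, 7 of the 10 genes had a negative change with a median of -0.08, and 3 of them, Dnm1, Sh3gl2 and Cltb, had groups that did not overlap. Over all 13123 genes read that way, 51.0% had a negative change and 11.2% had SOD1 arrays all below the WT arrays. These counts are for the quantile-normalised values. After median centring the median change over all probe sets tested was 0.04. Clta 1421062_s_at (0.19), Clta 1434540_a_at (0.086) and Dnm3 1436624_at (0.13) then turned positive, as did Synj1 1454961_at.

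Dnm1 was then set against each of the other 9 genes by the probe set of highest signal, as the per-array difference. The change of Dnm1 minus that of the other gene was -1.40 for Dnm2, -1.08 for Dnm3, -1.26 for Amph and -1.09 for Bin1. It was -0.91 for Sh3gl2, -1.16 for Synj1, -1.15 for Clta, -1.23 for Snap91 and, nearest to 0, -0.66 for Cltb. In all 9 comparisons the 3 SOD1 arrays lay below the 3 WT arrays (exact two-sided permutation test, p = 0.1 for each and 0.1 after adjustment over the 9). With 3 arrays against 3, 0.1 is the smallest p that test can give, so it cannot pass 0.05. The same Dnm1 values enter all 9 differences, and the groups were already apart for Dnm1 alone. The 9 comparisons are therefore not separate results.

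The probe sets of 1 gene were compared in 17 pairs over 8 genes. Of these, 0 had a difference in change past the threshold, with adjusted p of 0.565 or higher (limma), as did 0, or 0%, of the 9990 pairs in the table. At an unadjusted limma p under 0.05 there were 4 of 17, 23.5%, against 8.12% of all pairs. They were the Dnm1, Dnm2 and Dnm3 pairs given above and Cltb 1456797_at, whose change minus that of 1453063_at was -1.95 ± 0.67. The intervals were wide, from -2.76 to 2.80 for Synj1 1439997_at, so a missing call does not show that the probe sets moved alike. Repeated T7 amplification primed from the poly(A) tail favours the 3' part of transcripts. The 3' probe set of Actb read higher than its 5' probe set by 4.73, 5.02 and 4.29 (log2) in SOD1, against 5.01, 4.23 and 4.74 in WT, which overlap. The same difference for Gapdh was 3.47, 3.87 and 3.38 in SOD1, against 4.52, 3.35 and 3.29 in WT. For Tfrc it was 1.77, 0.87 and -0.66 in SOD1, against 4.08, 3.08 and 0.37 in WT, where the highest values were WT arrays and the groups overlap. The sources used here do not place the member probe sets along their transcripts, so the part of amplification in these differences was not tested.

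**Figure D4:**
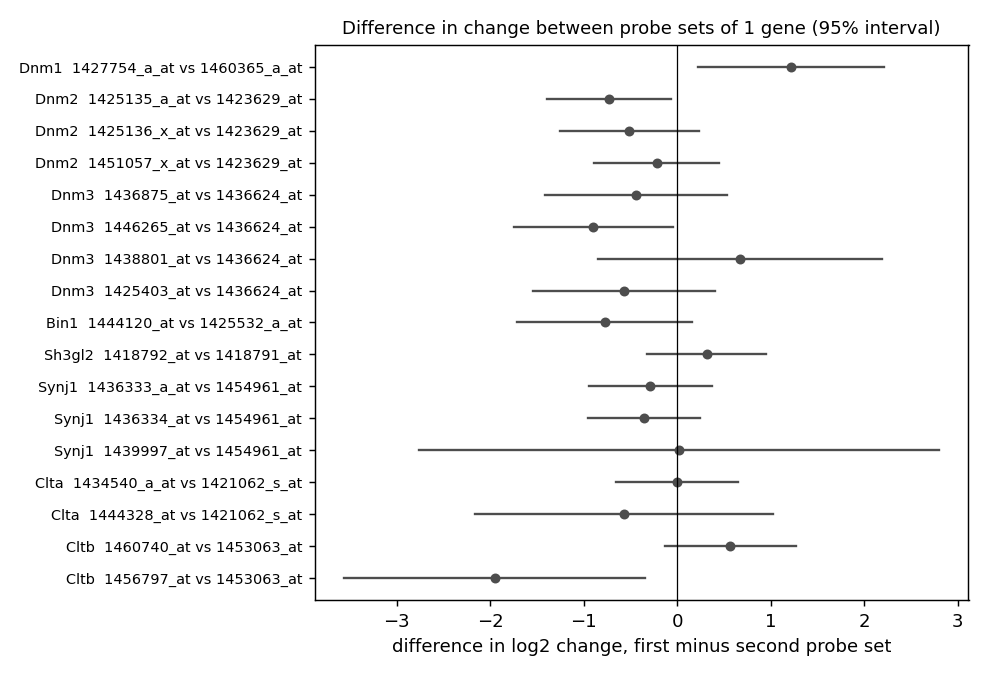
Difference in log2 change (SOD1 minus WT) between 2 probe sets of the same gene, the first named minus the second (x axis), for 17 pairs (rows), with 95% intervals. The Dnm1 pair lies at 1.22 and the pair of Cltb 1456797_at at -1.95, and 0 of the 17 passed after adjustment.

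The rest of the endocytic machinery was read from 60 further genes, listed by role with earlier results of these data known. Of these, 55 were tested, each by its probe set of highest signal. None of the 55 passed (limma, lowest adjusted p = 0.112), against 0.274% of the 13123 genes in the table. Their changes had a median of -0.06 beside -0.01 over all genes, and 31 were negative. At an unadjusted limma p under 0.05, 7 of the 55, 12.7%, were lower and 4, 7.27%, were higher, against 8.87% and 7.67% of all genes.

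Of the clathrin heavy chain and AP-2 genes, 6 of 6 were tested, with a median of -0.13. Cltc, the heavy chain, read 16.07, 16.31 and 16.03 in SOD1, against 15.87, 15.82 and 16.37 in WT, a change of 0.12 ± 0.15. Ap2m1, the cargo-binding subunit of AP-2, read 14.52, 14.45 and 14.35 in SOD1, all below the 14.93, 15.17 and 15.03 in WT. Its change of -0.60 ± 0.14 did not pass (limma, adjusted p = 0.112). The 15 tested genes of other adaptors and early scaffolds had a median of -0.06, with 2 higher at the unadjusted level, Eps15 (0.42 ± 0.13) and Necap2 (1.08 ± 0.39).

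Among 15 tested partners of dynamin with BAR or SH3 domains, the median was -0.17. Pacsin1, the neuronal syndapin that binds dynamin 1, read 13.77, 12.57 and 12.58 in SOD1, against 14.35, 14.50 and 13.91 in WT. The groups were apart with a change of -1.28 ± 0.31 that did not pass (limma, adjusted p = 0.118), although without SOD1 replicate 1 it was -1.67 ± 0.23 and passed (limma, adjusted p = 0.0401). Itsn1, a scaffold that links dynamin to AP-2, read 12.83, 12.63 and 12.47 in SOD1, all above the 12.34, 12.29 and 12.46 in WT, by a small step of 0.28 ± 0.21. Also at the unadjusted level, Pacsin3 (-0.62 ± 0.26) and Cttn (-0.28 ± 0.10) were lower and the endophilin relatives Sh3gl3 (0.82 ± 0.27) and Sh3glb1 (0.45 ± 0.20) were higher.

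The 10 phosphoinositide enzymes and uncoating factors had a median of -0.11. Hspa8, the chaperone that strips clathrin from vesicles, read 17.36, 17.40 and 17.25 in SOD1, against 17.28, 17.42 and 17.34 in WT, a change of -0.01 ± 0.08. It ranked 7, 6 and 17 in SOD1 and 13, 5 and 8 in WT among the 27022 probe sets, at the top of the scale, where a rise could hardly be seen. Its co-chaperone auxilin, from Dnajc6, was at 0.27 ± 0.17. Pip5k1c, which makes the phosphoinositide that adaptors and dynamin bind, was at -0.97 ± 0.26 (limma, adjusted p = 0.143), and Pi4k2a at -0.45 ± 0.21. The 9 kinases and phosphatases that switch dynamin 1 and its partners had a median of -0.03. Ppp3ca, a calcineurin subunit, was at 0.02 ± 0.23, and Gsk3b, a kinase of dynamin 1, at -0.61 ± 0.14 (limma, adjusted p = 0.118). Cltc, Ap2m1, Pacsin1, Itsn1, Hspa8, Dnajc6 and Ppp3ca were named by a rule, and the other genes of these lists were named after their values were seen.

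**Figure D5:**
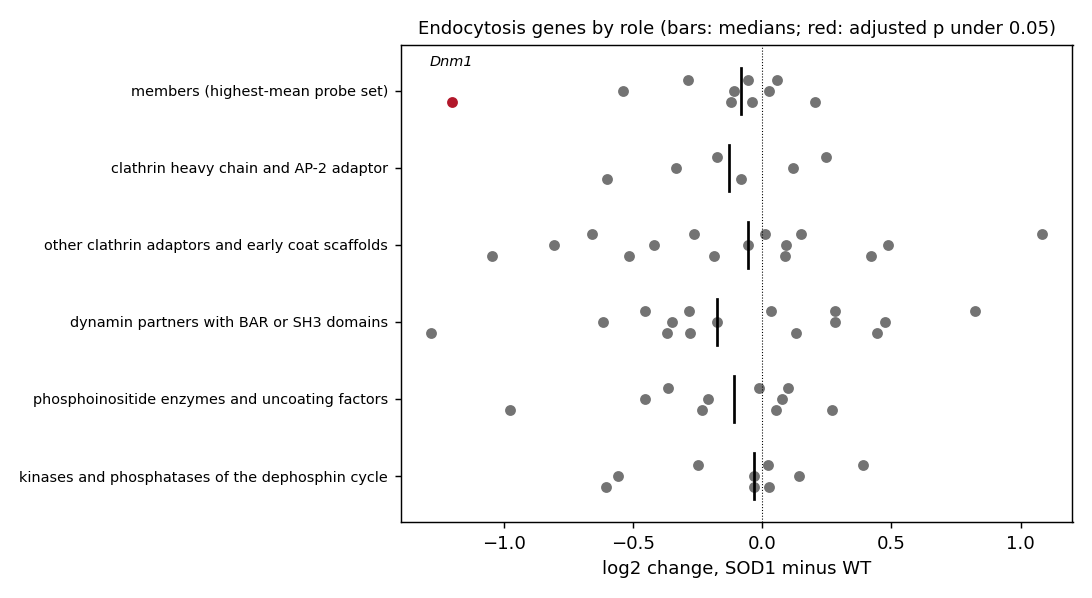
Log2 change, SOD1 minus WT (x axis), of each tested gene by its probe set of highest signal, for the 10 members and 5 lists of other endocytosis genes (rows), with bars at the medians; red marks an adjusted p under 0.05. The members' median is -0.08 and those of the lists lie between -0.17 and -0.03, with Dnm1 at -1.20 the 1 red point.

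The probe sets whose pattern over the 6 arrays was most like that of Dnm1 1460365_a_at belonged to Riox2, Clstn1, Tesc, Exoc4 and Mapk8ip2, with Pearson correlations of 0.995 to 0.998. They are the 5 highest of 23111 probe sets compared, of which 238 had a correlation over 0.95, and all share the same 6 arrays. Their estimates were -0.49 ± 0.26 for Riox2, -0.72 ± 0.13 for Clstn1, -0.44 ± 0.10 for Tesc, -1.43 ± 0.22 for Exoc4 and -0.91 ± 0.15 for Mapk8ip2. Exoc4 and Mapk8ip2 passed (limma, adjusted p = 0.0327 and 0.0417), and Riox2, Clstn1 and Tesc did not. The correlation was taken over both groups, so a difference between the groups in the same direction raises it.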

How the data were processed

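The authors deposited 1 linear intensity for each probe set on each of 6 mouse Affymetrix arrays. Per the labels, the RNA went through 2 T7-based amplification rounds. The sources used here give no algorithm, scaling or genome build, so no coordinates are printed, and no sequences were used.

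The 64 control probe sets were left out. The other 45037 were quantile normalised, 16 was added and log2 taken. Those whose mean exceeded the 40th percentile entered a two-sided test in limma 3.58.1 under R 4.3.3, using lmFit and eBayes with a trend of variance on signal, and p-values were adjusted by Benjamini-Hochberg over all of them. Symbols came from the platform annotation, 34945 probe sets having 1. All 33 member probe sets matched a RefSeq symbol (GRCm38.p6).

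Within each gene, every other kept probe set was compared with that of highest mean by fitting the per-array differences with limma. Background was the 95th percentile of 27 Bacillus control probe sets. Probe set names ending in _a_at, _s_at or _x_at mark sets that can read several transcripts.

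The members, lists and settings were chosen with earlier results of these data known. Named genes were all member probe sets, list genes past the threshold and a fixed few of each list, of which 1 was not analysed here, and the 5 most like Dnm1. Same-numbered arrays of the groups deviated from their group means with correlations of -0.04 to 0.03, so the numbers were not taken to pair them. The fits were tested on simulated data. Figures were drawn with matplotlib 3.10.9.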

Additional observations from a re-analysis of the deposited data

How the results depend on the processing

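Alternatives tried were the deposited values without further normalisation, median centring, other pseudocounts, filters and variance models, array weights, the replicate block, a term for Xist, other uses of probe sets and each array left out. Dnm1 1460365_a_at was lower in SOD1 in 19 of 19 of these settings, the one of the report included, and passed in 14 (limma, adjusted p from 0.00625 to 0.321). It did not pass with no variance trend (-1.20) or as the mean of its probe sets (-0.59), and the range with each array left out was -1.36 to -1.10. The count of member probe sets that passed was then 0 in place of 1, as it was without probe sets ending in _s_at, _x_at or _a_at, a setting that leaves out both Dnm1 probe sets, and it was 0 to 1 with each array left out. The count over the 55 other endocytosis genes was 0 to 1 with each array left out and 0 otherwise. Over the whole table the count was 50, against 0 with no variance trend or without WT replicate 2, 6 without SOD1 replicate 2, 9 without WT replicate 1, 29 without SOD1 replicate 3, 11 with gene means, 25 without shared probe sets, 76 with the replicate block, 87 with a pseudocount of 64, 100 with array weights and 106 when the filter was at the 60th percentile. With the replicate number as a block Dnm1 was at -1.20 (adjusted p = 0.0106), 1 member probe set passed, and none of the other members, of the 55 other endocytosis genes or of the pairs changed its call. Of the calls, 33 were lower and 17 higher, against 22 lower and 19 higher with median centring. The pairs of probe sets gave 0 calls in every setting run. The differences between Dnm1 and the other 9 genes kept their sign in the settings where they were taken. These were the deposited values, median centring, other pseudocounts, the replicate block and each array left out. They were not taken with gene means, where Cltb (-0.998) and Snap91 (-0.93) had lower estimates than Dnm1 (-0.59) and the other genes did not.

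Changes near 0 turned their sign, none of them past the threshold either way. With values as deposited, Clta 1421062_s_at was at 0.081, Cltb 1460740_at at -0.0062, Dnm1 1427754_a_at at -0.092, Dnm3 1436624_at at 0.023, Sh3gl2 1418792_at at -0.0092 and Synj1 1454961_at at 0.085. With median centring, the Clta probe sets 1421062_s_at and 1434540_a_at were at 0.19 and 0.086, Dnm3 1436624_at at 0.13 and Synj1 1454961_at at 0.19. With array weights Dnm1 1427754_a_at was at -0.14 and Synj1 1454961_at at 0.0043, and with a pseudocount of 64 Synj1 1439997_at was at 0.11. With the term for Xist, Clta 1434540_a_at was at 0.051, Dnm1 1427754_a_at at -0.12 and Sh3gl2 1418792_at at -0.53. Centring on pan-neuronal markers, a setting added after the data were seen, put Dnm2 1451057_x_at at 0.012 and Synj1 1439997_at at 0.0091. As the mean of all its probe sets, in place of 1418791_at and 1416688_at, Sh3gl2 was at 0.11 and Snap91 at -0.93. Both of those means take in a probe set below the filter.

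With each array left out in turn, Amph ran from -0.023 to 0.11, Bin1 1425532_a_at from -0.34 to 0.10, Clta 1421062_s_at from -0.11 to 0.011, Clta 1434540_a_at from -0.16 to 0.11 and Clta 1444328_at from -1.15 to 0.055. Cltb 1460740_at ran from -0.032 to 0.12, Dnm1 1427754_a_at from -0.28 to 0.47, Dnm2 1451057_x_at from -0.19 to 0.14 and Dnm3 1438801_at from -0.075 to 1.00. Sh3gl2 1418792_at ran from -0.15 to 0.31, Snap91 1416688_at from -0.087 to 0.15, Synj1 1439997_at from -0.55 to 0.95 and Synj1 1454961_at from -0.15 to 0.064.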
